A study of Solanum lycopersicum and Solanum pimpinellifolium with 9 samples.

Results

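The central steps of ethylene signalling were followed through 9 tomato genes, chosen by their gene IDs from a list of named genes that runs from the kinase CTR1 to the EIL transcription factors: CTR1 (Solyc10g083610), EIN2 (Solyc09g007870), EIL1 (Solyc06g073720), EIL2 (Solyc01g009170), EIL3 (Solyc01g096810), EIL4 (Solyc06g073730), EBF1 (Solyc12g009560), and the genes listed as EBF2 (Solyc07g008250) and GR (Solyc01g104340). All 9 were found among the 34727 gene IDs of the deposited table. The first 7 names fit a RefSeq gene of that symbol on the chromosome the ID gives. For the last 2 this was not so: RefSeq places EBF2 on chromosome 8 and a gene with the symbol GR on chromosome 9, while the IDs give chromosomes 7 and 1, so both are called by their ID and given no role here.

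Transcripts were measured by pyrosequencing of cDNA and are given in RPKM, in which the reads of a gene are divided by the length of its gene model and by the size of the library. Root, upper stem below the apical meristem, fully expanded leaf (2 to 3 weeks old), flower at full anthesis without sepals, and mature green, breaker (at the colour turn) and red ripe fruit came from Solanum lycopersicum cultivar MoneyMaker, the cultivated tomato. Fully expanded leaf (2 to 4 weeks old) and ripe fruit came from accession LA0722 of Solanum pimpinellifolium, its wild red-fruited relative. The labels name no treatment, and the plants shared a greenhouse regime of 16 h of light and 8 h of dark, and every group is 1 library, so no value has a replicate and no difference between groups was tested.

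In the absence of ethylene, the receptors in the endoplasmic reticulum membrane keep the Raf-like kinase CTR1 active, and CTR1 phosphorylates the membrane protein EIN2 and holds the pathway off. When ethylene binds, EIN2 is released from this block and passes the signal to the nucleus, where transcription factors of the EIN3 family, called EIL in tomato, accumulate and switch on ethylene-responsive genes. EBF F-box proteins mark the EIN3-type factors for degradation, and in Arabidopsis their genes are themselves induced by the pathway. Tomato is a climacteric fruit whose ripening depends on ethylene.

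The values step by what 1 read is worth in each library, which gave whole reads for each gene and an implied total of 211200 (LA0722 ripe fruit) to 380300 reads (MoneyMaker leaf) per library. The members rested on few of them: 353 reads over all 9 libraries for Solyc07g008250, 309 for EIL2, 287 for EIL3, 224 for EBF1, 182 for EIL1, 130 for EIL4 and 63 each for CTR1 and EIN2. Solyc01g104340 had 1 read in all, in breaker fruit (6.37 RPKM), and was listed at 0 in the other 8 libraries, where a floor of 3 reads allows from 10.8 RPKM, in the deepest library, up to 19.4 RPKM in the shallowest. It is not described further. Intervals below are exact 95% intervals on reads. They cover counting error only, compare libraries rather than conditions, and treat reads from PCR-amplified cDNA as independent. Scaling matters most for MoneyMaker leaf and flower, whose RPKM median-ratio size factors divide by 0.654 and 0.386, against 1.07 to 1.44 for the other 7 libraries. The tissue labels were checked with genes of known site: RBCS-2A, a small subunit of Rubisco, stood at 34546 and 15932 RPKM in the leaves of MoneyMaker and LA0722 against 21.8 RPKM in root, the floral organ gene DEF was at 1437 RPKM in flower and at 34.5 RPKM or less elsewhere, TAG1, another floral organ gene, was at 106 RPKM in flower but also at 56.1 to 61.7 in MoneyMaker fruit and 323 in LA0722 ripe fruit, FER, a root iron regulator, was above 0 in root alone, at 61.4 RPKM, and the polygalacturonase gene PG2a was above 0 in breaker and both ripe fruits alone.

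CTR1, the negative regulator at the head of the pathway, was a low transcript with a peak in breaker fruit. Mature green, breaker and ripe fruit of MoneyMaker held 5.79, 33.7 and 5.94 RPKM, its root, stem, leaf and flower 5.94, 9.53, 4.22 and 5.64, and leaf and ripe fruit of LA0722 held 8.01 and 19.0. Breaker fruit, with 18 reads, was the highest library, with an interval of 19.96 to 53.2 RPKM. That of LA0722 ripe fruit, the next library, was 9.12 to 35.0 RPKM and overlapped it, and no neighbouring step in the order of the 9 levels had a ratio whose interval left out 1. Its level in breaker fruit was 5.82-fold that of mature green fruit (interval 2.08 to 20.1) and 3.53-fold that of stem, the next MoneyMaker library as deposited (1.46 to 9.39). From breaker to ripe the ratio was 0.176 (0.0434 to 0.535). The other 6 MoneyMaker libraries held 3 to 8 reads each and could not be put in an order. In bulk tissue, fewer cells that express a gene and less RNA per cell cannot be told apart, here and in every result below.

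EIN2, the membrane protein that carries the signal from CTR1 toward the nucleus, was nearly absent from MoneyMaker and present in LA0722. Root, stem, leaf and mature green fruit of MoneyMaker had 1.5, 0.75, 0.67 and 1.46 RPKM, flower and the breaker and ripe fruit of MoneyMaker were listed at 0, and leaf and ripe fruit of LA0722 had 41.2 and 9.59 RPKM. The 7 MoneyMaker libraries held 6 reads of it together, at most 2 in any of them, while LA0722 leaf held 49 and LA0722 ripe fruit 8. The 2 LA0722 values therefore did not overlap the MoneyMaker values, and how many of all genes do the same was not counted. LA0722 leaf stood 61.9-fold above MoneyMaker leaf, where there was 1 read (10.6 to 2496), and 27.5-fold above root (7.22 to 234). In ripe fruit LA0722 held 8 reads and MoneyMaker 0, and the exact interval of the ratio starts at 2.19. Set against a floor of 3 reads in the MoneyMaker library the ratio is 3.41, a value that leaves out the counting error of the 8 reads.

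EIN2 is the longest member, with an implied coding length of 3951 nt. Of 988 genes of 3000 nt or more, 78.0% had a read in MoneyMaker leaf and 73.2% in LA0722 leaf, and such genes took 2.33% and 2.64% of the recovered reads. In root and mature green fruit, where EIN2 had 2 reads each, they took 4.05% and 4.31%. Over the 7 MoneyMaker libraries 49.8% (flower) to 88.7% (root) of the long genes had a read. Which genome and gene models served for the reads of each species is not stated, and the part of sequence differences between the species in the EIN2 values was not tested.

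**Figure D1:**
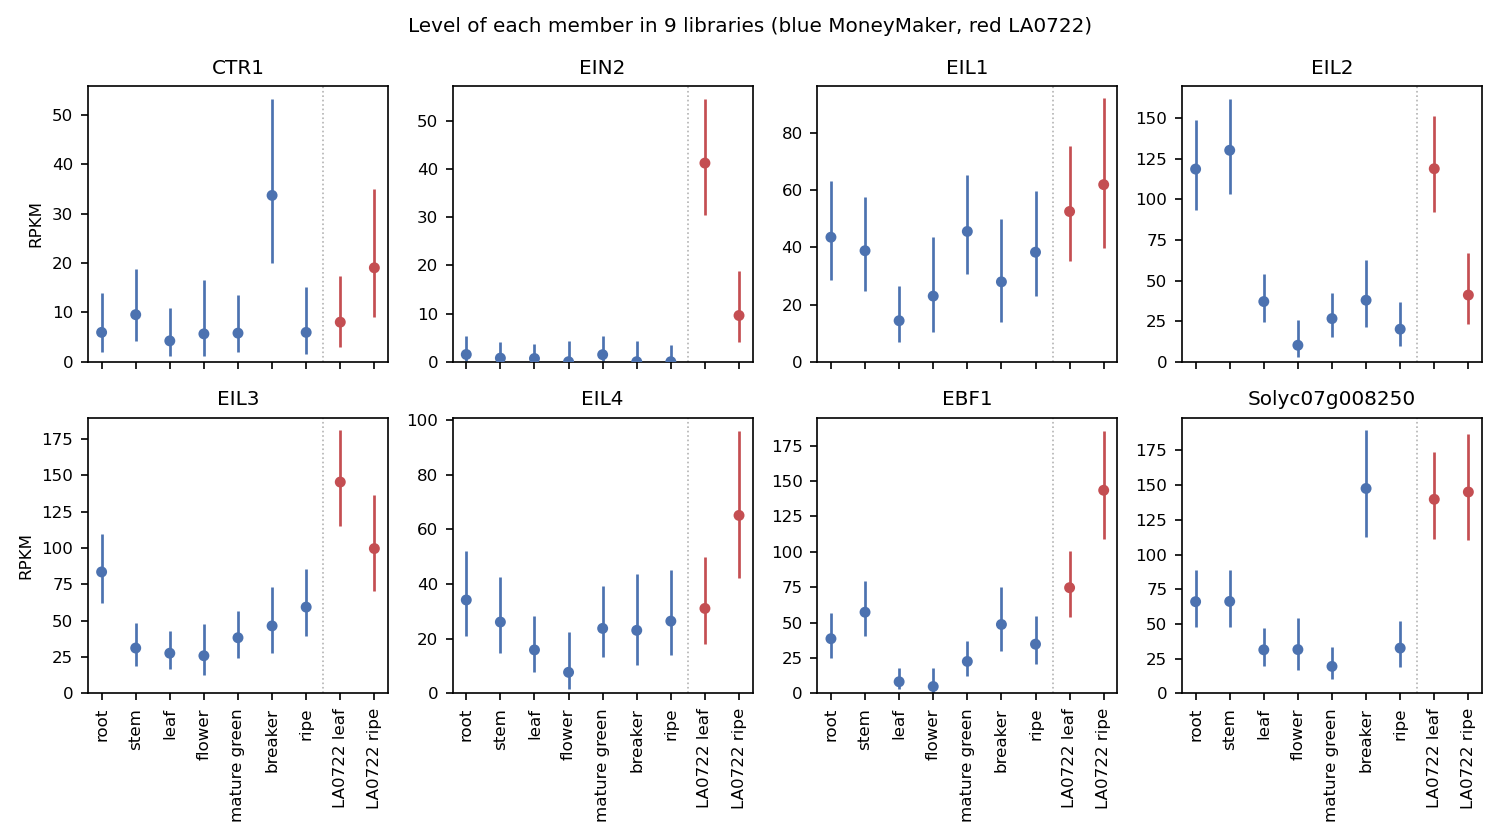
RPKM of 8 members (vertical axes from 0, linear) in the 7 MoneyMaker libraries (blue) and the 2 LA0722 libraries (red), with exact 95% Poisson intervals on recovered reads as vertical lines; each point is 1 library. CTR1 reaches 33.7 RPKM in breaker fruit, EIN2 is visible in LA0722 alone, and Solyc07g008250 is near 140 to 148 RPKM in breaker fruit and both LA0722 libraries.

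The 4 EIL genes, the transcription factors at the end of the chain, were present in all 9 libraries, and their implied coding lengths lay between 1806 and 1845 nt. EIL1 and EIL4 carry consecutive IDs and have no protein-coding gene between them in the RefSeq table (assembly SLM_r2.1). How the authors counted reads that fit more than 1 related gene is not stated, so the split between EIL genes is uncertain to that extent.

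As deposited, EIL2 was the EIL gene with the widest range by ratio. Root, stem, leaf and flower of MoneyMaker had 119, 130, 37.1 and 10.1 RPKM, its fruit 26.6 (mature green), 37.9 (breaker) and 20.04 (ripe), and LA0722 had 119 in leaf and 41.1 in ripe fruit. Root, stem and LA0722 leaf formed an upper group, with stem 1.10-fold root (0.791 to 1.53). Stem was 3.52-fold MoneyMaker leaf (2.24 to 5.70), or 1.92-fold with median-ratio size factors (1.22 to 3.11), and root was 4.47-fold mature green fruit (2.61 to 8.08).

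EIL3 was highest in LA0722. LA0722 had 145 RPKM in leaf and 99.6 in ripe fruit, and MoneyMaker had 83.6, 31.2, 27.7 and 25.9 in root, stem, leaf and flower and 38.3, 46.4 and 59.4 in mature green, breaker and ripe fruit. Within MoneyMaker as deposited, root led, at 2.68-fold stem (1.55 to 4.80) and 1.41-fold ripe fruit (0.875 to 2.30), an interval that includes 1. Root was 3.23-fold flower as deposited (1.62 to 7.13), but 0.978-fold with median-ratio size factors (0.491 to 2.16). Its lead over flower therefore does not hold under that scaling.

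EIL1 varied less as deposited. MoneyMaker root, stem, leaf and flower had 43.6, 38.9, 14.4 and 23.0 RPKM, the 3 fruit stages 45.6, 28.0 and 38.3 from mature green to ripe, and LA0722 leaf and ripe fruit 52.6 and 62.0. MoneyMaker leaf was the lowest library as deposited, and mature green fruit was 3.18-fold leaf (1.51 to 7.31). With median-ratio size factors the ratio was 1.45 (0.685 to 3.33) and with upper-quartile scaling 1.92 (0.910 to 4.42), so this difference does not hold under them. No 2 neighbours in the order of the 9 levels had a ratio whose interval left out 1, for EIL1 and EIL3 alike, and 1 of 8 neighbouring steps did so for EIL2 and 1 of 8 for EIL4.

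EIL4, the neighbour of EIL1, was the least abundant EIL gene over the 7 MoneyMaker libraries, with 88 reads against 129 for EIL1, 170 for EIL3 and 227 for EIL2 on similar lengths. The fruit stages of MoneyMaker, from mature green to ripe, had 23.8, 23.1 and 26.4 RPKM, its root, stem, leaf and flower 34.2, 26.1, 15.9 and 7.72, and LA0722 had 31.1 in leaf and 65.1 in ripe fruit. LA0722 ripe fruit was its highest library, and flower, with 3 reads, its lowest as deposited. Per length, EIL1 stood at 0.902 to 2.98 times EIL4 within a library, and the interval of this ratio included 1 in all 9.

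Summed over EIL1 to EIL4, MoneyMaker fruit held nearly the same level at every stage as deposited, while the makeup differed between organs. From mature green through breaker to ripe the sum was 134, 135 and 144 RPKM, and the ratio of ripe to mature green fruit was 1.07 (0.771 to 1.49). This ratio was 1.18 with median-ratio size factors (0.849 to 1.64), 1.35 with upper-quartile (0.969 to 1.87) and 0.902 with equal-sum scaling (0.648 to 1.25). Root, stem, leaf and flower had sums of 280, 226, 94.98 and 66.7 RPKM, so root was 2.95-fold leaf (2.21 to 3.98). With median-ratio size factors that ratio was 1.52 (1.13 to 2.04). In LA0722 the sum was 348 RPKM in leaf, 3.66-fold the MoneyMaker leaf (2.75 to 4.92; 2.24 with median-ratio size factors), and 268 in ripe fruit, 1.86-fold the MoneyMaker ripe fruit (1.36 to 2.55).

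The share of EIL2 in this sum does not depend on how libraries are scaled. It was 57.5% in stem (exact interval 48.9% to 65.8%) and 42.4% in root (34.9% to 50.1%), against 19.8% (12.0% to 29.8%), 28.0% (16.6% to 42.0%) and 13.9% (6.87% to 24.1%) in MoneyMaker fruit, mature green to ripe. In the same order EIL3 held 13.8%, 29.8%, 28.5%, 34.3% and 41.2%. EIL3 stood per length at 0.240 times EIL2 in stem (0.137 to 0.399) and at 2.96 times EIL2 in MoneyMaker ripe fruit (1.40 to 6.81). Ripe fruit of LA0722 had the same order, with EIL3 at 2.43 times EIL2 (1.32 to 4.66). EIL2 thus stood above EIL3 in stem and below it in both ripe fruits, while in root, both leaves, flower, mature green and breaker fruit the interval of their ratio included 1.

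**Figure D2:**
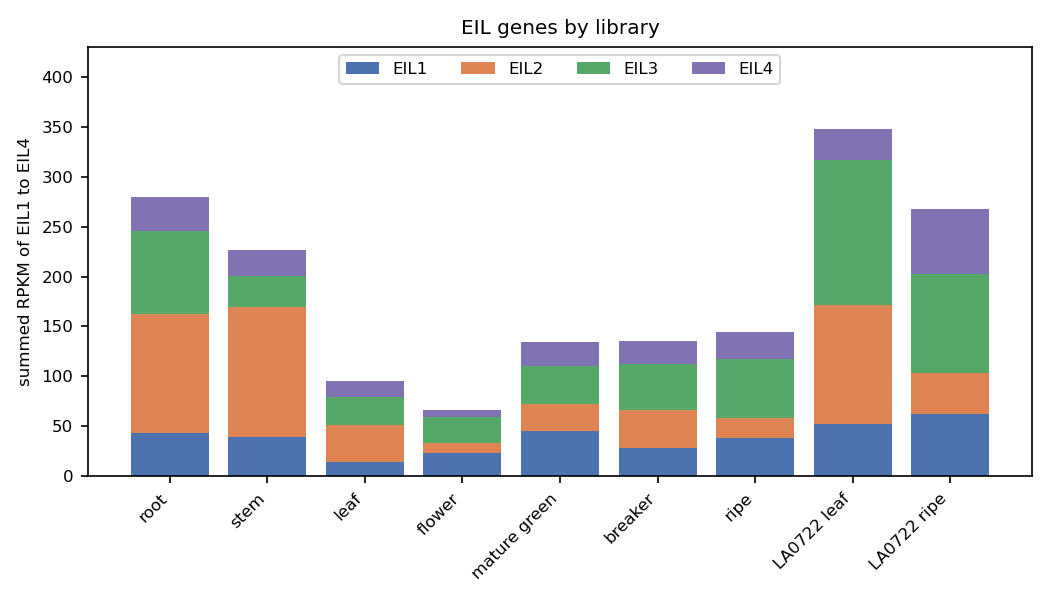
Stacked bars give the RPKM of EIL1 to EIL4 (vertical axis, linear from 0) in each of 9 libraries. The bars of the 3 MoneyMaker fruit stages are of like height, at 134 to 144 RPKM, and the EIL2 segment is largest in stem, root and LA0722 leaf.

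EBF1, whose F-box product targets the EIN3-type factors, was low in leaf and flower of MoneyMaker as deposited. Its MoneyMaker values were 38.6, 57.4, 8.24 and 4.89 RPKM in root, stem, leaf and flower and 22.6, 48.7 and 34.8 in fruit from mature green to ripe, and its LA0722 values 74.7 in leaf and 143 in ripe fruit. Stem was 6.96-fold MoneyMaker leaf (2.91 to 20.2) and 11.7-fold flower, where EBF1 had 2 reads (3.03 to 100). With median-ratio size factors these ratios were 3.8 (1.59 to 11.0) and 3.78 (0.975 to 32.4). Both LA0722 values lay above all 7 MoneyMaker values, as those of EIN2, EIL1 and EIL3 did as deposited. How many of all genes do so was not counted, and the order was not recomputed under other scalings. It is therefore given for each gene and not as a result about the members as a set.

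Solyc07g008250 was the most abundant member by reads and had 3 high libraries. In MoneyMaker fruit it stood at 19.5, 148 and 32.6 RPKM from mature green to ripe, in root, stem, leaf and flower at 66.1, 66.2, 31.4 and 31.6, and LA0722 leaf and ripe fruit had 140 and 145. Breaker fruit and the 2 LA0722 libraries stood together at the top, and breaker was 2.23-fold stem (1.48 to 3.37). Per length it stood at 3.03 times EBF1 in breaker fruit (1.80 to 5.30) and 3.81 times in MoneyMaker leaf (1.51 to 11.4). The ratio was 0.861 in mature green fruit (0.377 to 1.94), and 0.939 (0.455 to 1.93) and 1.01 (0.692 to 1.48) in ripe fruit of MoneyMaker and LA0722.

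To set the members against the whole table, a gene was counted as higher or lower between 2 libraries when log2(RPKM + 5) differed by at least 2 units, that is 4-fold, and the higher library had 25 RPKM or more. A second rule asked for 1 unit, that is 2-fold. Another, added after the data were seen, asked that the interval of the read ratio leave out 1, with all genes that had a read in either library as background. A gene with few reads cannot have such an interval, and this background was not matched to the members in reads. The pseudocount makes these differences understate the fold of low genes such as CTR1. A gene can reach 25 RPKM through its higher library alone, as CTR1 did in breaker fruit and EIN2 in LA0722 leaf. Such a member is counted because of the same value that is called, so the member counts are descriptions. By the 4-fold rule no member was predominant in 1 of the 7 MoneyMaker libraries over the next highest, against 16.3% of genes. With 2-fold as the rule CTR1 and Solyc07g008250 were, both in breaker fruit as deposited, against 32.7% of genes. These 2-fold calls were not recounted over all genes under other scalings. Median-ratio size factors divide flower by 0.386 and breaker fruit by 1.21. For both genes this leaves breaker fruit less than 2-fold above flower, so neither 2-fold call holds under that scaling.

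The ripening series asks which genes differ between fruit stages. From mature green to breaker, 1 of the 6 members at 25 RPKM or more, Solyc07g008250, was higher by the 4-fold rule, against 8.51% of 8098 genes, and none was lower, against 11.5%. It went from 19.5 to 148 RPKM, a log2(RPKM + 5) difference of 2.64 and a ratio of 7.59 (4.12 to 15.1). By the 2-fold rule CTR1 was higher as well, with a difference of 1.84, against 18.3% of genes, and none was lower, against 26.6%. EBF1 missed that rule at 0.96, with a ratio of 2.16 (1.05 to 4.52). Its difference was 1.12 with median-ratio size factors, 1.15 with upper-quartile scaling and 1.07 with a pseudocount of 1 RPKM. It was 0.87 with equal-sum scaling and 0.69 with a pseudocount of 20 RPKM. These 3 members had intervals above 1, against 7.26% of genes, and none had one below 1, against 11.1%. The 4 EIL genes had ratios of 0.613 to 1.43, with intervals that included 1. Over the members at 25 RPKM or more the median difference was 0.70, and over all genes at that level -0.26.

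From breaker to ripe Solyc07g008250 and CTR1 stood lower again. Solyc07g008250 was the 1 member of 7 at 25 RPKM that was lower by the 4-fold rule, against 8.53% of 7255 genes, and none was higher, against 7.07%. Its difference of -2.02 (ratio 0.221, interval 0.121 to 0.384) lay just past the rule, and it missed the rule with upper-quartile scaling or a pseudocount of 20 RPKM. CTR1 was lower by the 2-fold rule, at -1.82, against 20.4% of genes, and none was higher, against 21.1%. The same 2 members had intervals below 1, against 7.6% of genes, and none had one above 1, against 7.44%. EBF1 had a ratio of 0.714 (0.356 to 1.42), and the EIL genes lay between 0.529 and 1.37, each with an interval that included 1. The median was -0.43 over the 7 members at 25 RPKM and 0.10 over all genes at the level.

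The 2 steps share the breaker library, so a value that is high there by counting error shows in both. Breaker fruit was above both other stages by the 2-fold rule for CTR1 and Solyc07g008250, 2 of the 7 members at 25 RPKM in at least 1 stage, against 7.07% of genes. CTR1 is among the 7 only through its value in breaker fruit. Over the whole span from mature green to ripe no member passed the 4-fold rule in either direction, against 8.51% of genes higher and 15.2% lower, or the 2-fold rule, against 20.8% and 28.2%. The member ratios of ripe to mature green fruit lay between 0.755 for EIL2 and 1.68 for Solyc07g008250, leaving EIN2 aside. Every interval included 1, whereas 9.32% of genes had one above 1 and 14.7% one below. The median difference was 0.33 over the 6 members at 25 RPKM and -0.12 over all genes.

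**Figure D3:**
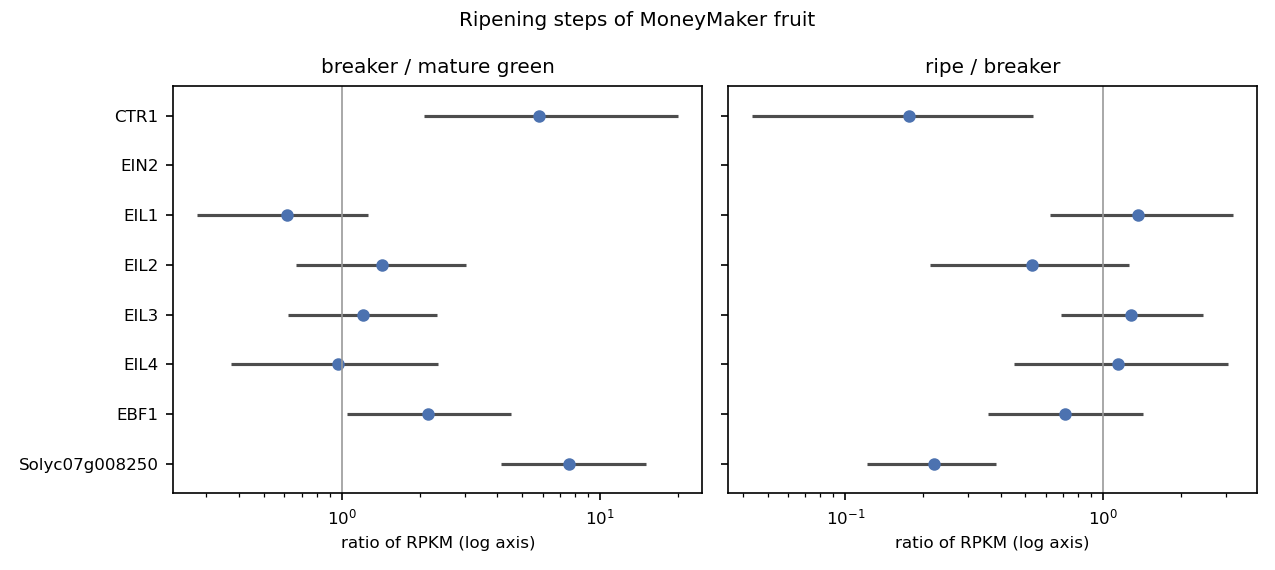
Ratio of RPKM (horizontal log axis) for breaker over mature green fruit and for ripe over breaker fruit, 1 library each, with exact 95% intervals; EIN2, listed at 0 in breaker and ripe fruit, has no point. CTR1 and Solyc07g008250 lie to the right of 1 at the first step and to the left at the second, and the EIL intervals cross 1 at both.

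Other genes of the pathway had larger differences at the first step. A list of 16 genes for receptors, ethylene synthesis and ethylene-responsive products was named from the tomato literature, and 15 of them had a RefSeq gene of that symbol or synonym on the chromosome in the ID. The gene called ACO3 was matched through the RefSeq gene EFE on chromosome 7, while RefSeq places the symbol ACO3 on chromosome 9, so its name is less sure. ACO1 and ACO3 are related genes with close IDs, and reads may be split between them. Of these 15, 10 reached 25 RPKM in mature green or breaker fruit. Of those, 7 were higher in breaker by the 4-fold rule, against 8.51% of 8098 genes, and none was lower, against 11.5%. The list was chosen from the literature with earlier results of these data known, so this count is a description and not a test. ACS2, ACS4, E4 and PG2a reached 25 RPKM in breaker but not in mature green fruit, and PG2a had also served to check the tissue labels. Below 25 RPKM the receptor gene ETR1 was lower in breaker, with a ratio of 0.269 (0.0508 to 0.923). The receptor gene NR went from 60.4 to 652 RPKM, a ratio of 10.8 (7.72 to 15.4). Of the synthesis genes, ACS4 went from 2.01 to 280 RPKM, ACS2 from 0 to 118, ACO1 from 213 to 4999 and ACO3 from 72.7 to 1798. E4, an ethylene-responsive gene of ripening fruit, went from 14.6 to 3540 RPKM.

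Most of the 7 receptor genes on the list were low. ETR4 stood at 44.1 RPKM in mature green and 122 in breaker fruit, and the 5 receptor genes other than NR and ETR4 stayed at 26 RPKM or less in each of the 9 libraries. From breaker to ripe 1 of the 15, ACS6, was lower by the 4-fold rule, against 8.53% of genes, and none was higher, against 7.07%. The ratio of ripe to mature green fruit was 1.03 for CTR1 (0.204 to 4.77) and 1.68 for Solyc07g008250 (0.767 to 3.76), wide intervals that include 1. NR remained at 374 RPKM in ripe fruit, 6.19-fold above mature green (4.38 to 8.93).

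Leaf was compared between LA0722 and MoneyMaker. All 8 members with a read in leaf had the higher value in LA0722. By the 4-fold rule EIN2, EBF1 and EIL3 were higher, 3 of the 7 members at 25 RPKM, against 17.1% of 7015 genes, and none was lower, against 15.2%. The log2(RPKM + 5) differences were 3.03 for EIN2, 2.59 for EBF1 and 2.2 for EIL3. Solyc07g008250, at 1.99, lay just outside the rule.

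With 2-fold as the rule, 6 of these 7 members were higher, against 39.8% of genes, and none was lower, against 24.5%. The same 6 had intervals above 1, against 17.8% of genes, and none had one below, against 9.89%. EBF1 was 9.06-fold higher (3.84 to 26.0), EIL3 5.26-fold (3.15 to 9.19), Solyc07g008250 4.45-fold (2.77 to 7.41), EIL1 3.67-fold (1.74 to 8.43) and EIL2 3.21-fold (2.01 to 5.26). The ratio was 1.95 for EIL4 (0.863 to 4.61) and 1.90 for CTR1 (0.450 to 9.13). The direction was shared by much of the table: 61.5% of genes at the level, and all 7 members there, had the higher value in LA0722 leaf, with a median difference of 0.60, against 1.99 over these members. Scaling by median-ratio size factors moved LA0722 leaf by -0.71 against MoneyMaker leaf, which left EIN2 and EBF1 past the 4-fold rule and EIL3 at 1.58. Under this scaling EIL2 missed the 2-fold rule at 0.92 and EIL1 stood at 1.01. With a pseudocount of 20 RPKM none of the 3 passed the 4-fold rule.

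Ripe fruit gave the same direction. All 6 members at 25 RPKM or more had the higher value in LA0722, against 44.0% of 7088 genes, and so did CTR1 and EIN2 below that level. No member passed the 4-fold rule as deposited, against 9.09% of genes higher and 14.1% lower. Solyc07g008250 (1.995) and EBF1 (1.90) came close, and with median-ratio, upper-quartile and equal-sum scaling both passed. By the 2-fold rule EBF1, Solyc07g008250 and EIL4 were higher, 3 of the 6 members at 25 RPKM, against 20.9% of genes, and none was lower, against 30.2%. EBF1 was 4.13-fold higher (2.40 to 7.44), Solyc07g008250 4.44-fold (2.56 to 8.13) and EIL4 2.46-fold (1.21 to 5.24).

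For EIL3 the ratio was 1.68 (1.01 to 2.82), for EIL2 2.05 (0.874 to 5.05), for EIL1 1.62 (0.849 to 3.12) and for CTR1 3.20 (0.923 to 14.0). With EIN2 and EIL3, 5 members had intervals above 1, against 8.35% of genes, and none had one below, against 11.3%. The median difference was 1.02 over the 6 members at 25 RPKM or more and -0.22 over all genes at that level. The 2 ripe fruits also differed in other markers. LA0722 ripe fruit held RBCS-2A at 724 RPKM against a listing at 0 for the MoneyMaker one, TAG1 at 323 against 59.4 RPKM and PG2a at 17185 against 12830 RPKM, and the part of these differences in the member ratios was not tested.

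The higher LA0722 values held in both organs. All 7 members that reached 25 RPKM in any of the 4 libraries had the higher value in LA0722 in leaf and in ripe fruit, against 24.8% of 9510 genes. With a 2-fold difference asked of both organs it was 3 of the 7, against 6.31%. These 3 were EIN2, EBF1 and Solyc07g008250, of which EIN2 in ripe fruit was at 9.59 RPKM against a listing at 0. On the pathway list, 5 of the 15 genes reached 25 RPKM in leaf and 10 in ripe fruit. In leaf ACO4 was lower in LA0722 by the 4-fold rule (110 against 524 RPKM), against 15.2% of genes. By the 2-fold rule ACO1 and ACO3 were lower as well, against 24.5%. None was higher by either rule, against 17.1% and 39.8%. Below 25 RPKM, the receptor genes ETR4 and ETR5 had leaf ratios of 8.85 (1.14 to 399) and 5.69 (1.18 to 54.1). In ripe fruit none passed the 4-fold rule, against 9.09% of genes higher and 14.1% lower. ACS2 (ratio 3.24, 2.67 to 3.93) and ETR7 (3.07, 1.01 to 11.1) were higher by the 2-fold rule, against 20.9%. ACO1 and E4 were lower by it, against 30.2%.

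**Figure D4:**
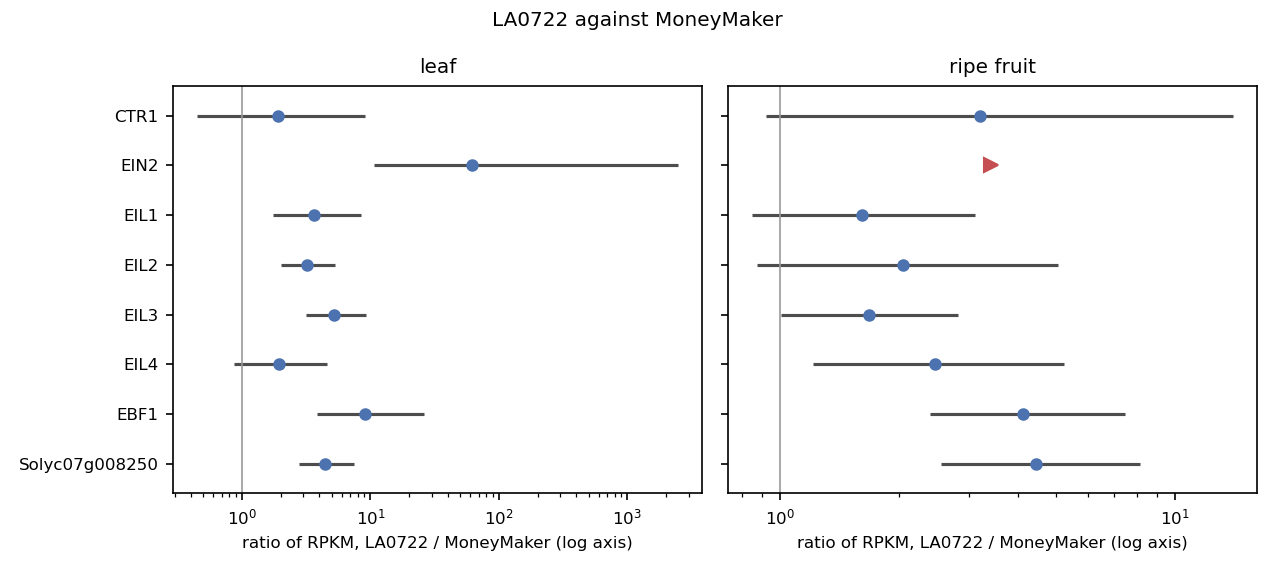
Ratio of RPKM of LA0722 over MoneyMaker (horizontal log axis) in leaf and in ripe fruit, 1 library each, with exact 95% intervals; the triangle for EIN2 in ripe fruit is the ratio of 3.41 against a floor of 3 reads in MoneyMaker, without the counting error of the 8 LA0722 reads. All points lie to the right of 1, and 6 intervals in leaf lie wholly there.

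Ripe fruit was also set against leaf within each species, which uses the same 4 libraries again. In MoneyMaker no member passed the 4-fold rule, against 26.4% of 7616 genes higher and 18.6% lower. EBF1 and EIL1 were higher in ripe fruit by the 2-fold rule, against 49.5% of genes, with ratios of 4.22 (1.6 to 13.0) and 2.67 (1.18 to 6.43), and none was lower, against 25%. Neither call held with median-ratio size factors, at 0.85 for EBF1 and 0.35 for EIL1, and EIL1 also missed the rule with upper-quartile (0.85) and equal-sum scaling (0.96). With EIL3, 3 members had intervals above 1, against 21.2% of genes, and none had one below, against 12.1%. The median difference was 0.78 over the 6 members at the level and 0.98 over all genes. Median-ratio size factors moved MoneyMaker ripe fruit by -1.0 against leaf. Under them the differences of CTR1, EIL4 and Solyc07g008250 turned negative, and that of Solyc07g008250 did so with upper-quartile and equal-sum scaling too.

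In LA0722 none passed the 4-fold rule either, against 19.3% higher and 19.4% lower of 7551 genes. EIN2 and EIL2 were lower in ripe fruit than in leaf by the 2-fold rule, against 32.2% of genes, with ratios of 0.233 (0.0951 to 0.495) and 0.345 (0.187 to 0.603), and none was higher, against 32.0%. EBF1 was 1.92-fold higher in ripe fruit (1.27 to 2.92) and EIL4 2.10-fold (1.09 to 4.13), both under the 2-fold rule after the pseudocount. Intervals thus lay above 1 for 2 members, against 13.3% of genes, and below 1 for 2, against 14.7%. Solyc07g008250 had ratios near 1, at 1.04 in MoneyMaker (0.521 to 2.03) and 1.04 in LA0722 (0.729 to 1.47).

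Correlations across the 9 libraries are given as a description, since all values of a library share its depth and scaling. Over the 7 members with at least 5 reads in 3 or more libraries, the Pearson correlation of log2(RPKM + 5) was positive in all 21 pairs, with a median of 0.59. The highest was 0.91 between EIL4 and EBF1, followed by 0.81 between EIL1 and EBF1 and 0.80 between the neighbours EIL1 and EIL4. CTR1 followed Solyc07g008250 (0.76) and correlated with the EIL genes at 0.08 to 0.40. The median correlation of a member with 7487 other genes was 0.09 (Solyc07g008250) to 0.32 (EIL4). With the 7 MoneyMaker libraries alone the pairs of members ranged from 0.04 to 0.86 with a median of 0.54, and the pair of EIL4 and EBF1 still led. There the median with the other genes was 0.57 for EIL4, 0.52 for EBF1 and 0.42 for EIL1, close to the members' own.

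Among 7487 other genes at 25 RPKM or more in at least 3 libraries, the gene most like each member over the 9 libraries was named. For Solyc07g008250 it was Solyc01g005560 (r = 0.96), which had 131 RPKM in breaker fruit, 121 in root, and 154 and 209 in leaf and ripe fruit of LA0722. For CTR1 it was Solyc01g106630 (0.93), but that gene had 5 reads in all, 3 of them in breaker fruit, so its likeness is a matter of few reads. The genes most like EIL1, EIL2, EIL3, EIL4 and EBF1 were Solyc02g085040 (0.98), Solyc08g081930 (0.93), Solyc05g015500 (0.97), Solyc06g069780 (0.97) and Solyc03g119010 (0.94). With the 7 MoneyMaker libraries alone these genes ranked lower for some members, at 29 for EIL2, 201 for EIL4, 121 for EBF1 and 2 for Solyc07g008250. With log2(RPKM + 20) the rank was 2 for EIL3 and 4 for EBF1. The sources used here name none of these genes.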

How the data were processed

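The authors deposited RPKM values of 34727 gene IDs in 9 libraries, with 2 decimals. HTSeq was used, per the submitters' processing notes; aligner, genome build, annotation and filters were not given in the sources used here. Library columns were assigned from their names. For MoneyMaker, mature fruit was taken as mature green, and a column named as berry 10, the one left over, as ripe fruit. Whole reads were recovered from the steps of each gene's RPKM values, with gene lengths as multiples of 3 where that gave whole reads within 0.05. The recovered reads summed to 95.7% to 99.9% of the implied totals. In simulated data of 23089 genes, 98.3% of reads per gene and library came back exactly, and 99.8% for genes listed in 5 or more libraries. Simulated 8-fold changes between mature green and breaker fruit passed the 4-fold rule in 89.0% of 200 cases. The cases were drawn from genes with more reads in mature green fruit than any member but EIL1 and EIL3 had. The share therefore does not describe the other members. Differences are of log2(RPKM + 5); a gene of 25 RPKM or more in the higher library was counted at 2 log2 units, or 1. Ratio intervals are exact conditional binomial intervals, and level intervals exact Poisson intervals, at 95%. Python 3.11.15, numpy 2.4.6, pandas 2.3.3 and scipy 1.17.1 were used. The alternatives were other pseudocounts, levels, rules and scalings; counting by the read ratio interval and rescaled organ ratios were added after the data were seen. All 9 members, the 15 pathway genes and, for 7 members, the most similar gene are named. The members and lists were chosen with earlier results of these data known. No sequence is printed.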

Additional observations from a re-analysis of the deposited data

Results flagged for a closer look

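EIL3 differed in direction between the 2 species when ripe fruit was set against leaf. Its log2(RPKM + 5) difference was 0.98 in MoneyMaker, where ripe fruit was higher (ratio 2.15, interval 1.16 to 4.05), and -0.52 in LA0722, where it was lower (ratio 0.685, interval 0.453 to 1.02). The difference between the species was not tested, since each value rests on 1 library, and the LA0722 interval includes 1. With median-ratio size factors the MoneyMaker difference was 0.09.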

How the results depend on the processing

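Members past the 4-fold rule were recounted under other settings; more calls do not mean the same genes, and the cause was not tested. The share of all genes called in either direction stands beside each count. From mature green to breaker the count was 1, against 20% of genes. It became 2 with a pseudocount of 1 RPKM (23.9%), 2 with the rule of 1 log2 unit (44.8%) and 3 by the read ratio interval (18.4%). From breaker to ripe the count of 1 (15.6%) became 2 (19.3%), 2 (41.4%) and 2 (15%) under these settings. It was 0 with a pseudocount of 20 RPKM (5.27%) or upper-quartile scaling (15.2%). For ripe fruit of LA0722 against MoneyMaker the count of 0 (23.2%) became 2 (27.5%), 3 (51.1%) and 5 (19.6%). It was 2 with median-ratio size factors (22%), upper-quartile scaling (22.9%) or equal sums (22.6%). For leaf the count of 3 (32.2%) became 6 with the rule of 1 log2 unit (64.3%) and 6 by the read ratio interval (27.7%). It was 0 with a pseudocount of 20 RPKM (12.2%) and 1 at a level of 100 RPKM (35.4%). For ripe fruit against leaf the count was 0 in MoneyMaker (45%) and in LA0722 (38.7%). With the rule of 1 log2 unit it became 2 in MoneyMaker (74.5%) and 2 in LA0722 (64.2%). By the read ratio interval it became 3 in MoneyMaker (33.3%) and 4 in LA0722 (28%). The count of tissue-predominant members was 0 (16.3%) and became 2 with the rule of 1 log2 unit (32.7%). That rule was not recounted over all genes under other scalings, and neither call holds with median-ratio size factors. Of 285 single differences recomputed under other pseudocounts and scalings, 11 changed sign, with none from breaker to ripe or between the species. No paired analysis was possible because every group is 1 library. No replicate could be left out. Depth limits what can be said of Solyc01g104340, with 1 read, and of CTR1 and EIN2, with 63 reads each. Scaling of organ ratios, added after the data were seen, moved those against MoneyMaker leaf and flower most.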
